A study of Mus musculus with 8 samples.

Results

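The Mef2 family and Myf6 are muscle transcription factor genes, and 5 of them were followed here: Mef2a, Mef2b, Mef2c, Mef2d and Myf6. They were chosen by name, as 5 of the 27179 entries of the deposited expression table, and their lines were read in 4 lists of m6A peaks that name 9153 gene symbols in all. The cells were C2C12 myoblasts, an established mouse line seeded on collagen-coated dishes, so every replicate came from the same line. GM cells were collected at 50% confluence in high glucose DMEM with 10% fetal bovine serum, and 3d DM cells were collected 3 days after a switch to 2% horse serum at over 90% confluence, so medium, cell density and time in culture differ together between the states. Each state has 2 input libraries of polyadenylated RNA and 2 libraries from MeRIP-seq, in which fragmented RNA is precipitated with an antibody against N6-methyladenosine (m6A). Whether the 2 libraries of a state came from separate cultures is not given, so the spread between them may be technical.

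MEF2 proteins bind an A/T-rich DNA site through an N-terminal MADS box and the MEF2 domain beside it. They are not myogenic on their own, but act together with the myogenic bHLH factors Myod1, Myf5, Myog and Myf6 on the promoters of contractile and metabolic muscle genes. Class IIa histone deacetylases and Cabin1 hold them in a repressed state, and p38 and Erk5 kinases, CaM kinases and calcineurin release or activate them. Myf6, also called Mrf4, is the bHLH factor that predominates in mature muscle fibers.

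Expression was tested for 11406 genes that reached 2 cpm (the value per 1000000 of a library's total, here 25.1) in 2 or more input libraries. Standard errors in the main limma fit followed the intensity trend rather than the spread of a gene's own replicates. The median log2 fold change of all tested genes, 3d DM minus GM on the log2(value + 1) scale, was -0.22, and changes are also given relative to it. One entry without a symbol made up 24.4% and 33.2% of the GM libraries and 41.3% and 25.6% of the 3d DM libraries. As a check of the state, the embryonic myosin heavy chain Myh3 rose by 6.26 ± 0.41 on the log2 scale (SE, limma adjusted p = 5.63e-50) and the proliferation marker Mki67 fell by 2.63 ± 0.42 (limma adjusted p = 1.42e-08). The skeletal muscle markers Myod1, Myf5, Myog, Des, Ckm, Myh3 and Acta1 all passed the filter. GM replicate 1 had more muscle RNA than GM replicate 2, with 1008 against 221 for Myog and 698 against 101 for the fusion protein gene Mymk. Of 15 markers of other cell types, 10 stayed under 2 cpm in every library, 4 of them at 0 (Adipoq, Plin1, Fabp4 and Rbfox3), and their summed value was 816 and 312 in GM, against 987 and 1517 in 3d DM. Of the markers that passed the filter, the fibroblast marker Dcn (430 and 17.1 in GM, 409 and 685 in 3d DM) and Myh6, a myosin heavy chain of heart muscle (4.12 and 8.02 against 373 and 569), were called higher in 3d DM, Dcn no longer after rescaling by median-of-ratios factors (limma adjusted p = 0.168). Their part in the results below was not tested.

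Expression of 3 of the 5 genes rose with differentiation. Mef2a, Mef2c and Mef2d passed the filter and all 3 were called higher in 3d DM by limma at an adjusted p of 0.05, where 17.0% of all tested genes were called, 7.01% as higher and 9.96% as lower. Mef2b and Myf6 stayed under the filter in every library. In bulk RNA a change in RNA per cell and a change in the share of cells that express a gene cannot be told apart.

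Mef2c, which drives sarcomere gene expression in skeletal and heart muscle, showed the largest change of the family. Its normalized value was 81.0 and 68.2 in the GM replicates and 2742 and 2182 in the 3d DM replicates. Both 3d DM libraries lay far above both GM libraries, and in the deposited values replicates of a state differed little. By median-of-ratios factors, 3d DM replicate 1 was the lower library (log2 factors of -0.37 and 0.14). Mef2c was higher in replicate 1, so rescaling moves its 3d DM replicates apart. The log2 fold change was 5.02 ± 0.45 (SE, 95% interval 4.14 to 5.90, limma adjusted p = 8.68e-27), a 32.5-fold increase, or 5.25 relative to the median of all genes. That p-value does not draw on the spread of the gene's own replicates. After rescaling by median-of-ratios factors, where the fit draws on it in part, the limma adjusted p was 0.0011. In the order of log2 fold changes from the largest increase down, Mef2c stood at position 120 of the 11406 tested genes. The call was kept without each library in turn, with adjusted p-values from 1.52e-11 to 0.0347.

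Mef2d, a member expressed in many tissues, had values of 657 and 546 in GM, against 1300 and 1912 in 3d DM. Mef2a, a broadly expressed member, had values of 636 and 386 in GM, against 1002 and 1645 in 3d DM. For both genes each 3d DM library was above each GM library. The share of all tested genes with such a separation is not given here. In the deposited values, replicates of a state differed more than those of Mef2c. In 3d DM both genes were higher in replicate 2, the direction of the library factors above, so rescaling brings those replicates together. The log2 fold change was 1.40 ± 0.43 for Mef2d (95% interval 0.56 to 2.23, limma adjusted p = 0.00932) and 1.37 ± 0.43 for Mef2a (0.52 to 2.22, limma adjusted p = 0.0121). Relative to the median of all genes these changes were 1.62 and 1.59. Neither call was kept when any single library was left out, where the adjusted p ranged from 0.0683 to 0.380 for Mef2d and from 0.10 to 0.60 for Mef2a, with log2 fold changes from 1.12 to 1.67 and from 1.01 to 1.73. Some exonic bases are shared with other annotated genes, 531 in Mef2d with the antisense gene 1700113A16Rik and 302 in Mef2a with Lysmd4 on the opposite strand, and the sources used here do not state whether reads were counted by strand.

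Mef2b, the member best known from germinal centre B cells, was listed at 0 in both GM libraries and at 0.146 and 3.11 in 3d DM. The same pair of 3d DM values stood in 97 of the 27179 entries (0.357%). No fold change can be formed against a state listed at 0. GENCODE annotates Borcs8 transcripts that share 62 exonic bases with Mef2b on the same strand, so its low values cannot be assigned with certainty.

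Myf6 had values of 10.6 and 5.02 in GM, against 6.85 and 1.08 in 3d DM. The states overlapped, and every value was below 2 cpm. The exact permutation test of 2 libraries against 2, two-sided, gave p = 0.667, and such a test cannot give less than 0.33. When every entry above 0 was tested, limma gave Myf6 a log2 fold change of -1.05 with an adjusted p of 0.456. The depth of the libraries is not known, so a low level of Myf6 RNA in either state cannot be bounded.

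**Figure D1:**
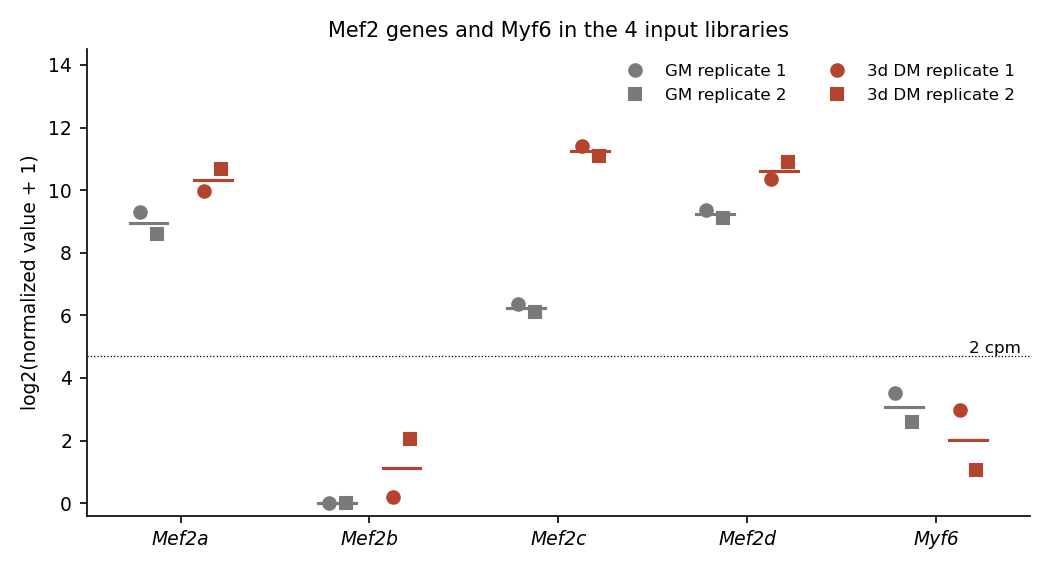
Each point is one input library, with log2(normalized value + 1) on the vertical axis, circles for replicate 1 and squares for replicate 2, GM in grey and 3d DM in red; lines are means of 2 libraries and the dotted line marks 2 cpm. The 3d DM points of Mef2a, Mef2c and Mef2d lie above their GM points, and all points of Mef2b and Myf6 lie under the dotted line.

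Levels were compared between genes after division by exonic length, taken as the union of RefSeq exons (9.461 kb for Mef2a, 1.329 kb for Mef2b, 7.595 kb for Mef2c, 5.836 kb for Mef2d and 1.254 kb for Myf6). In GM, Mef2d came first at 113 and 93.5 per kb, followed by Mef2a at 67.2 and 40.8, Mef2c at 10.7 and 8.99, Myf6 at 8.44 and 4.01, and Mef2b at 0. No neighbours overlapped in this order, though Mef2c and the higher of the Myf6 values were close. In 3d DM, Mef2c came first at 361 and 287 per kb, and its range overlapped that of Mef2d at 223 and 328. Mef2a followed at 106 and 174 per kb, under both with these lengths, and Myf6 (5.46 and 0.864) overlapped Mef2b (0.110 and 2.34). With 2 libraries a state, none of these neighbours can be told apart by an exact test, whose smallest p is 0.33.

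The make-up of the family differed between the states. Of the summed per-kb level of the Mef2 genes, Mef2c made up 5.60% and 6.27% in GM, against 52.3% and 36.3% in 3d DM. The share of Mef2d was 59.1% and 65.2% in GM, against 32.3% and 41.4% in 3d DM, and that of Mef2a was 35.3% and 28.5% against 15.4% and 22.0%. Shares of all 3 genes did not overlap between the states, and since they are formed within a library a scaling factor common to its genes cancels. The shares of a library add up to its whole, so the 3 are not separate results. The values of Mef2d and Mef2a themselves were higher in 3d DM. The deposited values are not whole numbers of reads, and how far the authors adjusted them gene by gene cannot be seen, so the shares need not be raw proportions. The summed per-kb level itself was 190 and 143 in GM, against 690 and 791 in 3d DM, a log2 difference of 2.16 (exact permutation p = 0.333, the smallest this test can give). The ratio of Mef2d to Mef2a stayed close, at a log2 per-kb ratio of 0.74 and 1.20 in GM, against 1.07 and 0.91 in 3d DM, which overlap, whereas the log2 ratio of Mef2c to Mef2d went from -3.40 and -3.38 to 0.70 and -0.19. A different length kept Mef2d above Mef2a but brought their ranges together. With the single GENCODE transcript used for peak positions (5.538 kb for Mef2a, 5.401 kb for Mef2d), Mef2a was at 115 and 69.8 per kb and Mef2d at 122 and 101 in GM, and in 3d DM they were at 181 and 297 and at 241 and 354, so that the ranges overlapped in both states.

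**Figure D2:**
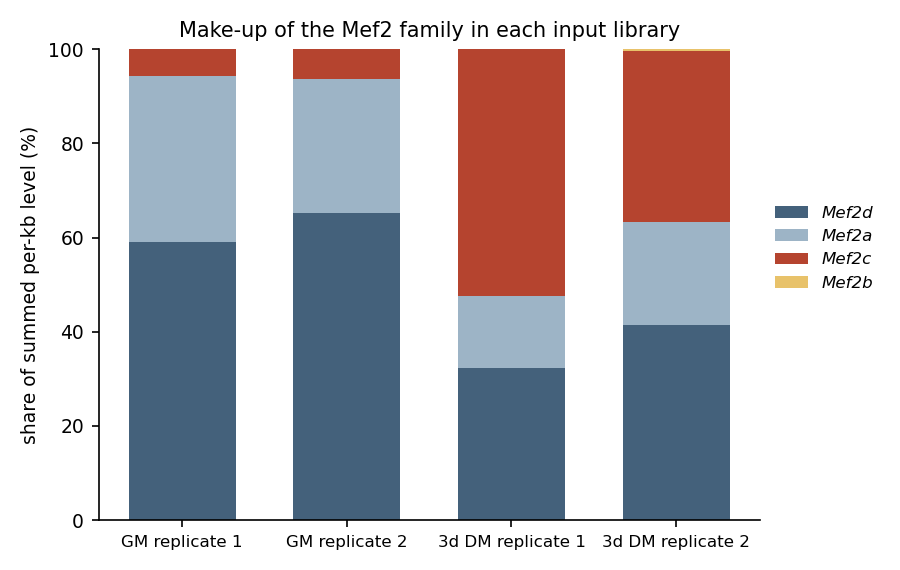
Stacked bars give the share, in percent, of each Mef2 gene in the summed per-kb level of the family, one bar for each input library. Mef2c takes 5.60% and 6.27% of the GM bars and 52.3% and 36.3% of the 3d DM bars, and Mef2b is visible in 3d DM replicate 2 alone, at 0.295%.

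In growing cells, replicate 1 had more RNA of many muscle genes than replicate 2, and Mef2c was not among them. The log2 difference between the GM replicates was 0.24 for Mef2c and 0.27 for Mef2d, beside a median of 0.21 over all tested genes. It was 2.19 for Myog, 2.62 for the muscle creatine kinase Ckm, 1.99 for the myosin assembly methyltransferase Smyd1 and 1.76 for the troponin Tnnc1. Mef2a stood between, at 0.72, as did Myod1 at 0.60. The muscle gene Xirp1 differed by less than Mef2c, at 0.11, so a small difference was not particular to Mef2c. These are differences of a single pair of libraries and carry no test.

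The bHLH partners moved in different directions. Of 6 listed myogenic bHLH factors and E proteins, their dimer partners, 1 was called higher and 2 lower, beside 7.01% and 9.96% of all tested genes, and the median log2 fold change was -0.22, the same as that of all tested genes. Myog, which is switched on as myoblasts leave the cell cycle, had values of 1008 and 221 in GM, against 5392 and 11502 in 3d DM, and rose by 4.06 ± 0.42 (limma adjusted p = 2.6e-20). Myf5, a factor of proliferating myoblasts, had 397 and 355 in GM, against 58.5 and 121 in 3d DM, and fell by 2.14 ± 0.48 on the log2 scale (limma adjusted p = 0.000118). Of the E proteins, Tcf3 had 1344 and 1534 in GM against 441 and 819 in 3d DM and fell by 1.25 ± 0.43 (limma adjusted p = 0.0241). Left out in turn, single libraries took the call from Tcf3 in 3 of 4 cases (adjusted p up to 0.495), from Myog without either 3d DM replicate (0.0662 and 0.0836) and from Myf5 without 3d DM replicate 1 (0.104). Myod1, which specifies the myoblast lineage, was at 1713 and 1129 in GM, against 1016 and 1645 in 3d DM, with a log2 fold change of -0.10 that turned to 0.13 when libraries were rescaled by median-of-ratios factors.

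Genes that restrain, assist or signal to MEF2 proteins were not called in either direction, beside 17.0% of all tested genes. Of 5 repressors, all passed the filter and none was called (lowest limma adjusted p = 0.318, log2 fold changes from -0.73 to 0.74). Cabin1, a repressor that is released from MEF2 by calcium, had the highest mean value of this list, with 773 and 732 in GM, against 511 and 730 in 3d DM. Of the class IIa deacetylases, Hdac5 (578 and 402 against 556 and 839) was called higher only when libraries were rescaled, with a log2 fold change of 0.73 (limma adjusted p = 0.0390) under median-of-ratios factors. None of 8 coactivators was called (lowest limma adjusted p = 0.146), and the acetyltransferase Ep300 was at 950 and 933 in GM, against 816 and 1037 in 3d DM. None of the 12 tested genes of 15 upstream kinases and phosphatase subunits was called (lowest limma adjusted p = 0.106), and Ppp3r1, the regulatory subunit of calcineurin, was at 1155 and 1072 in GM, against 921 and 1337 in 3d DM. Map2k6, Camk4 and Prkd1 were under the filter. Without the filter Map2k6 (62.3 and 20.1 against 5.41 and 10.5) was called lower, by a log2 fold change of -2.09 (limma adjusted p = 0.0278). A p over the threshold does not show that these genes were equal between the states, and with 1 GM library left out the coactivator Mamstr was called (2.25, limma adjusted p = 0.0102 without GM replicate 1).

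Most of the listed MEF2 target genes rose. Of 11 genes with known MEF2 sites, 10 passed the filter, 7 were called higher and none lower, beside 7.01% and 9.96% of all tested genes, and their median log2 fold change was 2.29. The oxygen carrier Mb had values of 81.2 and 31.1 in GM, against 3430 and 4880 in 3d DM, a log2 fold change of 6.31 ± 0.45 (limma adjusted p = 2.58e-42). Tnnc1 had 611 and 180 in GM, against 18429 and 20138 in 3d DM. The states were far apart for both genes. Tnnc1 rose by 5.86 ± 0.41 and Ckm by 5.38 ± 0.46, and Xirp1, an actin-binding protein of the intercalated disc and the myotendinous junction, rose from 256 and 237 to 1758 and 2610 (3.11 ± 0.43). Smyd1 rose by 3.63 ± 0.45. Des, the muscle intermediate filament and the most abundant gene of this list, had 12764 and 5945 in GM, against 21225 and 23528 in 3d DM (1.36 ± 0.40, limma adjusted p = 0.0061), and Xirp2 had 76.0 and 24.1 against 105 and 140 (1.47 ± 0.54, limma adjusted p = 0.0388). The calls of Mb, Tnnc1 and Xirp1 were kept without each library in turn, those of Ckm and Smyd1 were lost without either 3d DM replicate (adjusted p from 0.0586 to 0.0871), and those of Des and Xirp2 were kept only without GM replicate 1 (adjusted p up to 0.410 and 0.847). Xirp2 was also not called after rescaling (limma adjusted p = 0.0548). Nr4a1 (76.5 and 114 against 115 and 196), Jun (1938 and 1846 against 894 and 1303) and Ppargc1a (60.4 and 6.05 against 21.9 and 31.1) were not called, though Ppargc1a was without GM replicate 1 (1.94, limma adjusted p = 0.0399), and the glucose transporter gene Slc2a4 was under the filter.

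**Figure D3:**
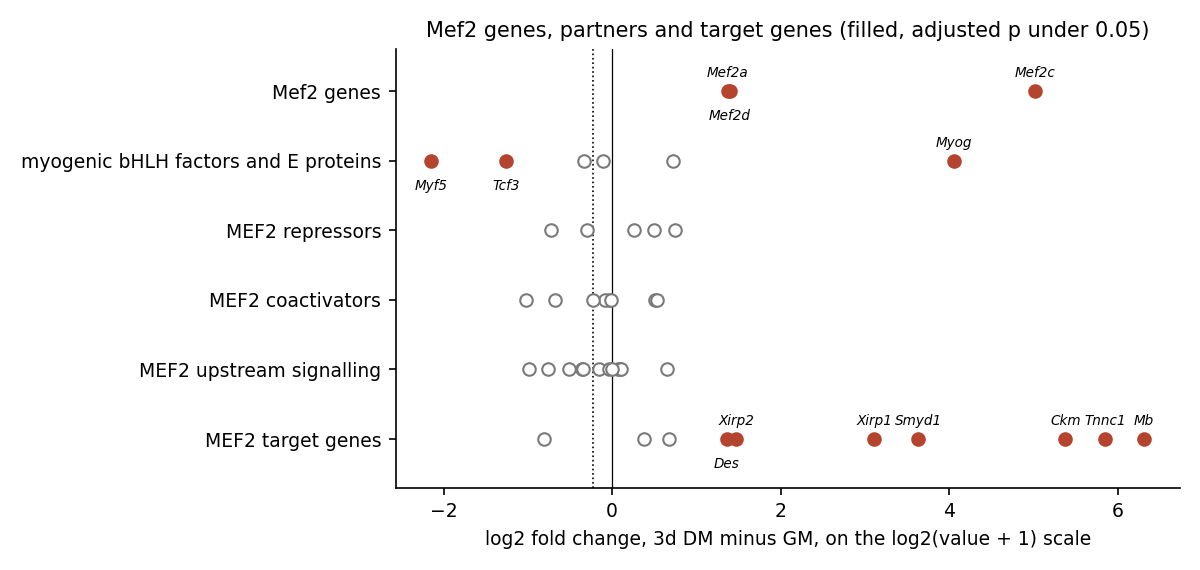
Each circle is a gene, placed by its log2 fold change (3d DM minus GM, log2(value + 1) scale) and by its list, and filled where the limma adjusted p was under 0.05; the dotted line is the median of all tested genes, -0.22. Mef2c at 5.02 lies among the target genes with the largest changes, while circles of the repressors, coactivators and signalling genes are open and lie between -1.03 and 0.74.

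Genes of most similar pattern were found by the distance of centred log2(value + 1) over the 4 input libraries, among 11252 other tested genes with a symbol. Nearest to Mef2c were Clic3 (distance 0.346), the fatty acid receptor gene Cd36 (0.351) and Gm5532 (0.465). Cd36 went from 10.5 and 9.03 in GM to 385 and 409 in 3d DM, and Clic3 from 1.04 and 1.00 to 87.5 and 73.4. Gm5532 went from 2.11 and 1.01 to 70.2 and 79.7. All of these GM values were under 2 cpm, where the 1 added before the log weighs on the distance. Nearest to Mef2a were Rassf3 (0.0551), Itga7 (0.10), an integrin chain of muscle fibers, and Igfbp4 (0.109), and nearest to Mef2d were Cyb5r1 (0.0751), Stk11ip (0.0793) and Aif1l (0.0812). Over 4 libraries such a likeness is a description of values only.

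m6A peaks were found on 3 of the 5 genes. The authors called peaks in each sample against its own input, and a list holds a line for every protein-coding transcript with a peak, with a fold enrichment of precipitated over input RNA. Lines that share an exonic base were merged here, and this gave 4 distinct peaks on Mef2a, 3 on Mef2c and 3 on Mef2d over all lists. Mef2b and Myf6 had no line in any list. Of the 3 tested genes, Mef2a and Mef2d had a peak in all 4 lists, as had 42.6% of all tested genes with a symbol, and all 3 had one in both 3d DM lists, as had 48.2%. Counted within each list, the 3 genes together had 3 distinct peaks in either GM replicate 1 or GM replicate 2, and 9 in each 3d DM replicate. The same count over all genes is not given here, so this difference cannot be read as particular to these genes.

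The first peak of Mef2a lay over the start codon. In mm10, on the minus strand, its lines span chr7:67268365-67372769 with introns, within a gene that lies at 67231163-67376456. In the bases covered in all 4 lists, 157 nt lay in the 5' UTR and 87 nt in the coding sequence of the 5538 nt transcript used for positions. The first peak of Mef2c lay over the corresponding place, in 3 lists, with 93 nt of 5' UTR and 81 nt of coding sequence covered in all 3, and its lines span chr13:83520423-83633192 on the plus strand (gene 83504017-83667079). Over all 4 lists, 997 of 19683 distinct peaks (5.07%) touched both the 5' UTR and the coding sequence in the authors' labels. Mef2d had no peak over its start codon in any list.

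The first 174 coding bases of the spliced Mef2 messages are shown because they encode the N-terminal end, where the MADS box lies. They hold a peak in Mef2a and Mef2c but not in Mef2d. Capitals mark the DRACH motif of m6A, which is A, G or T, then A or G, then AC, then A, C or T, with the third base methylated. Letters were read from GENCODE M21 transcripts of mm10 on the sense strand.
Mef2a (chr7:67295459-67316845, minus): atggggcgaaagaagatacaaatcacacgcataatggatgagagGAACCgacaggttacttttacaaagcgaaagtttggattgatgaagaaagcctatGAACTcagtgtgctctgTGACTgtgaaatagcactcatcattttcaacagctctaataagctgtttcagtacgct
Mef2b (chr8:70164251-70165167, plus): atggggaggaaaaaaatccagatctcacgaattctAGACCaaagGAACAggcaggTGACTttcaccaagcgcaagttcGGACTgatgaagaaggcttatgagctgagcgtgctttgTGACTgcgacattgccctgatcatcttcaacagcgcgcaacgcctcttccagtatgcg
Mef2c (chr13:83575677-83592897, plus): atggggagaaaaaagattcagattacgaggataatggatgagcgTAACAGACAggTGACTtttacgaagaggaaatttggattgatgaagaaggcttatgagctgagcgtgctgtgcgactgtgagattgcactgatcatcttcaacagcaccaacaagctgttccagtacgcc
Mef2d (chr3:88155809-88156441, plus): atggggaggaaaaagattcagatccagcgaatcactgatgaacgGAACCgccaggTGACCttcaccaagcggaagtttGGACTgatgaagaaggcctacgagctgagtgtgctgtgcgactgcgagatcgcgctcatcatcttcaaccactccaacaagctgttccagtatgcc
The stretch was 81.6% identical between Mef2a and Mef2c, 82.8% between Mef2c and Mef2d and 77.6% between Mef2a and Mef2d. It held 3 DRACH motifs in Mef2a, Mef2c and Mef2d and 5 in Mef2b, and 61.4% of 21412 protein-coding genes have at least 3 in their first 174 coding bases. The bases shared by the lists cover only the first 87 coding bases in Mef2a and 81 in Mef2c, with 1 and 3 motifs. The form GGACT is in this stretch of Mef2b and Mef2d, and not of Mef2a or Mef2c. Whether the motifs bear on the presence of a peak was not tested.

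GGACT, a form of DRACH that the m6A methyltransferase favours, stood once in the bases shared by all lists in the first peak of both genes. It is shown within 21 bases.
Mef2a, 5' UTR, 108 nt before the start codon (chr7:67316941-67316961, minus): gcagccctGGACTagaaggtt
Mef2c, directly before the start codon (chr13:83575664-83575684, plus): aaacacggGGACTatggggag
In Mef2c the motif ends where the start codon atg begins. Over non-overlapping stretches of 1 transcript for each protein-coding gene, on the sense strand, GGACT is in 22.5% of those as long as the shared bases of the Mef2a peak (244 nt) and in 16.6% of those as long as that of Mef2c (174 nt). A match is a description of letters, and the resolution of these peaks does not show which adenosine was methylated.

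The start codon peak of Mef2a had mean fold enrichments of 4.23 and 3.20 in the GM lists, replicate 1 first, and of 2.97 and 3.86 in the 3d DM lists. The states overlapped. The log2 difference of 3d DM minus GM was -0.12 (exact permutation test, two-sided, p = 0.667), beside an RNA level that was higher in both 3d DM inputs.

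The start codon peak of Mef2c was absent from the list of GM replicate 2. In GM replicate 1 it had 22 lines with fold enrichments from 8.75 to 13.1 and p-values from 0.000661 to 0.0107. Its 25 lines ran from 2.99 to 13.8 in the first 3d DM list and from 3.90 to 5.49 in the other. Over the 22 transcripts with a line in all 3 lists the median was 10.5 in GM, and 5.60 and 4.44 in the 3d DM lists, and 21 and 22 of them were higher in GM replicate 1 than in the respective 3d DM list. These transcripts share their exons and are not replicates. With a single GM list this difference was not tested, and the GM peak is on a gene with a mean input value of 74.6. Of 1378 tested genes with a GM mean within 1.5-fold of that value, 31.5% had a peak in both GM lists, 22.4% in 1 of them and 46.2% in neither. At a threshold of 1e-05 on the p-value, Mef2c had no peak in GM and kept 3 and 4 distinct peaks in the 3d DM lists. At the same threshold Mef2a had no peak in GM replicate 2, where its start codon lines had p-values from 0.000288 to 0.000407, and Mef2d kept its main peak in all 4 lists.

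Mef2d carried its main peak at the other end of the coding sequence. It spans chr3:88161796-88168804 on the plus strand (gene 88141941-88172091). The bases covered in all 4 lists held 540 nt of coding sequence before the stop codon and 68 nt from the stop codon on. The mean fold enrichment was 3.79 and 3.22 in the GM lists and 2.54 and 3.19 in the 3d DM lists. Both 3d DM values were lower than both GM values, by a narrow margin between GM replicate 2 and 3d DM replicate 2. The means of GM replicate 2 and 3d DM replicate 1 each include a separate 3' UTR line, at 2.01 and 2.30. The other lines of GM replicate 2 were from 3.43 to 3.57, and those of 3d DM replicate 2 from 3.17 to 3.20. Of 6055 peaks present in all 4 lists, 21.6% were lower in this way and 9.36% higher, so the pattern of Mef2d is a common one. The log2 difference was -0.29, the exact permutation p was 0.333, the smallest it can be, and the difference was -0.19 after each list was centred on its median.

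**Figure D4:**
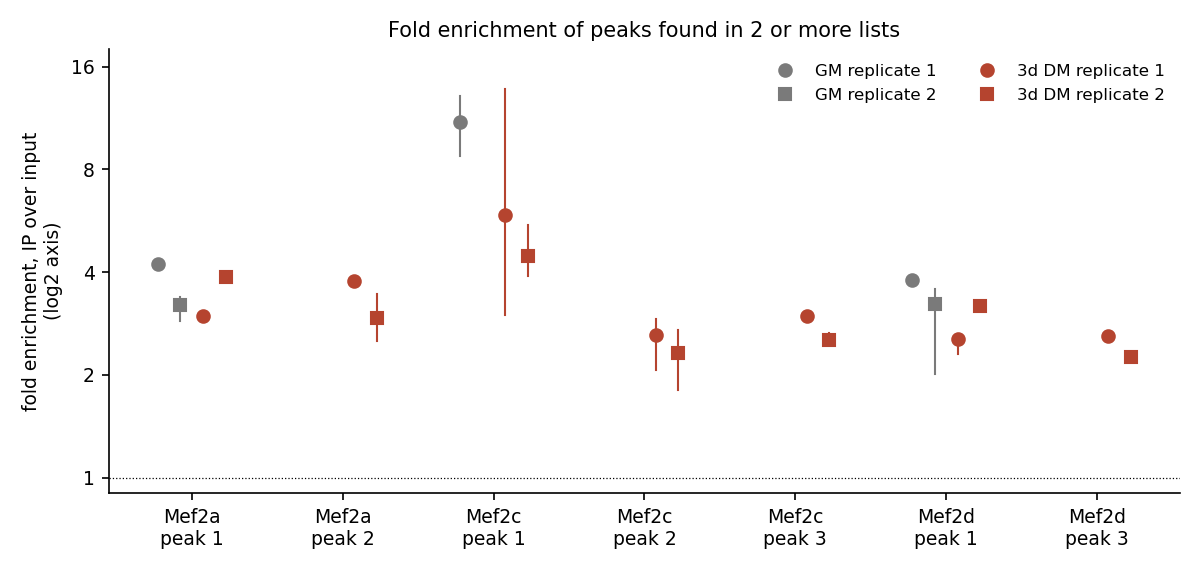
Mean fold enrichment of precipitated over input RNA (log2 axis) is drawn for each peak found in 2 or more lists, circles for replicate 1 and squares for replicate 2, GM in grey and 3d DM in red; vertical lines span the lowest and highest deposited line of that peak. The states overlap at Mef2a peak 1, the GM point of Mef2c peak 1 is at 11.0, and both 3d DM points of Mef2d peak 1 are below the GM points.

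Mef2c also carried a peak near its stop codon, in both 3d DM lists and in neither GM list. The share of all distinct peaks found in this way is not given here. The mean input value of Mef2c was 74.6 in GM against 2462 in 3d DM, and its part in this was not tested. On the transcript used for positions, the replicate 1 line ran over the stop codon. The replicate 2 lines lay on either side of the stop codon and did not cover it. Over both lists together the peak covers 320 nt of coding sequence before the stop codon and 796 nt from the stop codon on. It stood as 1 peak in replicate 1 (mean fold enrichment 2.62) and as 3 separate peaks in replicate 2 (2.32). The coding ends of Mef2c and Mef2d are shown because both lay in a peak, with DRACH motifs in capitals.
Mef2c, 201 coding bases covered in both 3d DM lists (chr13:83662421-83662621, plus): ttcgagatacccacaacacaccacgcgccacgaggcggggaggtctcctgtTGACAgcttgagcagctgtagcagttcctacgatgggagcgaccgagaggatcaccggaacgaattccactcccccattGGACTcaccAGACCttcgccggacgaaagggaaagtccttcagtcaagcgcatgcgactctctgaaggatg
Mef2d, last 201 coding bases with the stop codon (chr3:88168156-88168643, plus): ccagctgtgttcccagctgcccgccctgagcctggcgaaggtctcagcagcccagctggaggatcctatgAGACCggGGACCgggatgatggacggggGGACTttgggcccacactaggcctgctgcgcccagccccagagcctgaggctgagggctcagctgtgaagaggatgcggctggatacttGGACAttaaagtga
GGACT stands at coding base 1375 of Mef2c and at coding base 1422 of Mef2d. The shared bases of the Mef2d peak held 6 DRACH motifs in 608 nt, or 9.87 per kb, against 14.6 per kb over the whole Mef2d transcript and 20.4 per kb over 21877 protein-coding transcripts. Those of the Mef2c start codon peak held 34.5 per kb against 19.4 over the whole transcript, and those of Mef2a 24.6 against 22.6. GGACT is in 47.0% of transcript stretches as long as the shared bases of the Mef2d peak. It is in 50.4% of those as long as the shared bases near the Mef2c stop codon (675 nt). These Mef2c bases lie in separate pieces, whereas the stretches are continuous, so that comparison is a rough one.

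The remaining peaks lay in 3' UTRs and were found mainly in 3d DM. Mef2a had one at chr7:67233737-67234278 in both 3d DM lists (mean fold enrichment 3.76 and 2.94), and at chr7:67232659-67232816 (1.60) and chr7:67231253-67231732 (3.17) in 3d DM replicate 1 alone. Mef2c had one at chr13:83666749-83667080 in both 3d DM lists (2.97 and 2.54), at the end of its message. Mef2d had one at chr3:88169692-88169759 in GM replicate 2 alone (1.76), and one at chr3:88171668-88172086 whose 3d DM lines, of 2.60 in replicate 1 and 2.25 in replicate 2, share a single base. Input RNA of all 3 genes was higher in 3d DM, and its part in the number of peaks called there was not tested. The share of all distinct peaks found only in 3d DM lists is not given here.

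The last 3' UTR peaks of Mef2a and Mef2c share a sequence, shown with GGACT in capitals.
Mef2a, 3501 nt after the stop codon and 200 nt before the transcript end (chr7:67231355-67231375, minus): cacaagctGGACTttgttgcc
Mef2c, 4260 nt after the stop codon and 183 nt before the transcript end (chr13:83666883-83666903, plus): cataagctGGACTttgtcgcc
The 21 bases were identical at 19 places. The best match to the Mef2a window in the 3' UTR had 12 identical bases in Mef2d, 12 in Myf6 and 11 in Mef2b. This GGACT was covered by a peak in 3d DM replicate 1 for both genes and in 3d DM replicate 2 for Mef2c only. The pair was noticed after the peaks were read and carries no test.

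**Figure D5:**
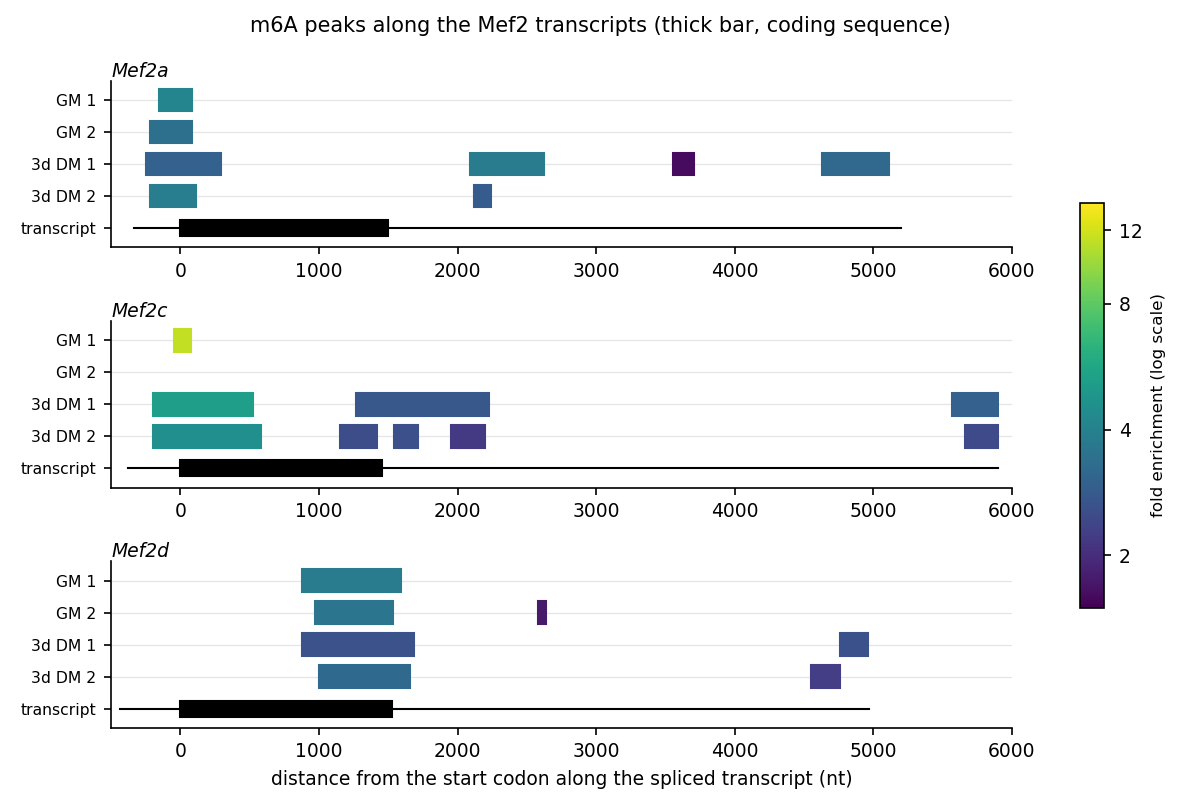
Peaks of the 4 lists are drawn along 1 spliced transcript each of Mef2a, Mef2c and Mef2d, by distance from the start codon in nt, with the coding sequence as a thick bar and the colour giving the fold enrichment (log scale); a box spans a line's first to last base. Mef2a and Mef2c have a peak over the start codon and Mef2d over the stop codon, and 3' UTR boxes stand mainly in the 3d DM rows.

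Peaks were also found on the partners and targets. Of the bHLH and E protein genes 4 of 6 tested had a peak in all 4 lists (Myod1, Myog, Tcf3 and Tcf4), as had 2 of 5 repressors, 6 of 8 coactivators, 7 of 12 signalling genes and 5 of 10 tested target genes (Des, Jun, Nr4a1, Tnnc1 and Xirp1). These shares of short lists stand beside the 42.6% of all tested genes given above, which were not matched by expression level. The coactivators Kat2b and Mamstr and the kinase Mapk12 had a peak in no list.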

How the data were processed

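C2C12 myoblasts in GM and 3d DM were compared from the processed files, with 2 input and 2 immunoprecipitated libraries a state, grouped by the labels. Per the labels, reads were aligned to mm10 with HISAT2 (2.1.0). The deposited expression table holds a normalized signal for each gene, named by the authors for trimmed-mean scaling and handled with edgeR; the values are not whole, reads could not be recovered, and depth is unknown. The deposited peak lists hold the p-value and the fold (ratio of precipitated over input RNA) of each line, called by the authors with exomePeak for each sample. Fold changes or tests of the authors were not used.

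The 5 genes and the lists of partners, targets and markers were chosen with earlier results of these data known. Symbols were assigned by gene identifier. Expression was tested as log2(value + 1) in limma (3.58.1, R 4.3.3), using the intensity trend and adjusting p by Benjamini-Hochberg over all tested genes, and the step was tested on simulated data. The methods filter at 2 cpm in 3 samples, run as an alternative. Peak lines of a gene sharing at least 1 exonic base were merged, and fold enrichment was averaged over lines and compared with an exact permutation test (two-sided). Positions and letters came from GENCODE M21 and exonic lengths from RefSeq, both of mm10. Named are the 5 genes, listed genes with an adjusted p under 0.05, the listed gene of highest mean in each list, and the 3 nearest patterns; other listed genes were named after their values were seen. Alternatives were other filters, pseudocounts of 0.1 and 4, no trend, a replicate block, 2 rescalings, stricter peaks (p of 1e-05, fold of 4), another overlap and each library left out; another exonic length was added after seeing the data. Analyses used Python 3.11.15, numpy 2.4.6, pandas 2.3.3, scipy 1.17.1 and matplotlib 3.10.9.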

Additional observations from a re-analysis of the deposited data

How the results depend on the processing

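Of the 5 genes, 3 were called in 8 of 13 alternatives, all but the replicate block and the left-out libraries, where 1 remained called, Mef2c. With the replicate number as a block, Mef2a (1.37, limma adjusted p = 0.107) and Mef2d (1.40, limma adjusted p = 0.0954) were not called, nor were Tcf3 (limma adjusted p = 0.158) and Xirp2 (limma adjusted p = 0.123). Over genes the deviations of same-numbered libraries correlated at r = 0.29, but there are 2 pairs and the labels do not tie them to a culture or day, so the number was not used as a pairing. Without single libraries the log2 fold change ran from 1.01 to 1.73 for Mef2a, 1.12 to 1.67 for Mef2d and 4.86 to 5.19 for Mef2c. Over all genes 1936 were called, 800 higher and 1136 lower, against 1369 and 1275 with median-of-ratios scaling, 593 and 705 with the replicate block, 1250 in all with 2 cpm in every library, and 145 (without 3d DM replicate 1) to 1252 (without GM replicate 1) with a library left out. Where a state keeps 1 library, it is assumed to vary like the other state. Rescaling moved the median of all genes from -0.22 to 0.01 and the changes of Mef2a, Mef2c and Mef2d to 1.60, 5.25 and 1.63. Of the partner and target genes 8 were called higher, and 3 to 10 with a library left out. Distinct peaks on the 5 genes, counted within lists, numbered 24, and 4 at a fold enrichment of at least 4. The difference at the Mef2a start codon peak ran from -0.32 (without GM replicate 2) to 0.082 (without GM replicate 1) and changed sign in 2 of 8 alternatives, with a block of same-numbered lists leaving it at -0.12. The log2 per-kb ratio of Mef2d over Mef2a in GM was 0.97, and 0.31 with transcript lengths, by construction of the length. The causes of the other changes were not tested. After rescaling, and without either 3d DM replicate, limma also used the spread of a gene's own replicates. Adjusted p-values of those fits therefore differ in basis from those of the main fit. With 2 libraries a state and unknown depth, no lower limit of detection can be given for Mef2b and Myf6.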
